A study of Mus musculus with 33 samples.

Results

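The clustered Hox genes were taken as the rows of the expression table whose symbol is Hoxa, Hoxb, Hoxc or Hoxd followed by a number, which gave 39 protein-coding genes of 52631 in the table. There were 11 in the HoxA cluster, 10 in HoxB, 9 in HoxC and 9 in HoxD. RNA was sequenced from 33 mouse libraries in 11 groups of 3, all from cells labelled as strain 129S2/SvPas. Embryonic stem cells (mES) were grown with LIF on inactivated embryonic fibroblasts in 15% serum. For differentiation they were moved to gelatin and given all-trans retinoic acid (atRA, 10 μM; the RA arm) or the same atRA with 5 μM CHIR (the RA/CHIR arm) for 10 days in 15% serum, and then 10% serum without either inducer for 6 days. Both arms were sampled at days 4, 7, 10 and 16, so that the day 16 groups had been without inducers for 6 days. CHIR is the usual short name of a GSK3 inhibitor that activates Wnt/beta-catenin signalling. No group received CHIR alone, and no untreated culture was sampled at days 4 to 16. Smooth muscle cells (SMC) and extra-embryonic endoderm cells (XEN), both kept in 15% serum, were the untreated reference cells for the RA and RA/CHIR arms. Nothing in the labels says that the 3 libraries of a group are separate cultures, and p-values then measure the spread between these libraries, which may be technical.

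Hox genes encode homeodomain transcription factors that give cells their position along the head-to-tail axis. Within a cluster all genes are read in the same direction, and those at the 3′ end (low paralog numbers) are switched on earlier and reach further towards the head than those at the 5′ end (high paralog numbers). Retinoic acid acts through its nuclear receptors on elements in and beside the 3′ part of the clusters, while Wnt, FGF and the caudal (Cdx) factors are known as activators of central and posterior Hox genes in the tail end of the embryo. Polycomb complexes hold the clusters silent in stem cells. Below, paralogs 1 to 3 are called anterior (8 genes), 4 to 8 central (15 genes) and 9 to 13 posterior (16 genes).

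In the GENCODE M21 annotation of GRCm38 the HoxA genes lay at chr6:52155590-52260880 on the minus strand, the HoxB genes at chr11:96194316-96368256, the HoxC genes at chr15:102921103-103036852 and the HoxD genes at chr2:74668310-74765142, the last 3 on the plus strand. Values are FPKM, fragment numbers scaled to transcript length and library size, so levels can be set side by side between genes. Of the 39 genes, 36 reached 1 FPKM in 3 or more of the 33 libraries and were tested. Hoxc12, Hoxd11 and Hoxd12 did not, and their highest single values were 0.620, 1.49 and 0.0591 FPKM. Hoxc11 passed through the SMC libraries only, and Hoxd10 through single libraries of RA/CHIR-7d, RA/CHIR-10d and SMC. Whether reads were counted by strand is not given, and some exons are shared in the annotation: 52.9% of the exonic length of Hoxb3 and 27.3% of that of Hoxb2 overlapped the antisense gene Hoxb3os, 35% of that of Hoxa11 overlapped Hoxa11os, and 53.1% of that of Hoxd3 and 39.1% of that of Hoxd4 overlapped the read-through model Gm28230. Values of these 5 genes are uncertain to that extent. Smaller overlaps were found for other members. Among them were 20.4% of Hoxa7 (antisense gene Hoxaas3), 16.0% of Hoxa4 (antisense gene Gm29430) and 15.0% of Hoxa2 (Gm28308, same strand).

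The members resemble each other in sequence, which bears on how well reads tell them apart. The 180-base homeobox, which encodes the DNA-binding homeodomain, was read from the GENCODE M21 transcripts. Its identity had a median of 80.6% over the 42 pairs with the same paralog number, 61.7% over the 172 pairs within a cluster and 60.6% over the other 527 pairs. The longest run shared by any pair within the homeobox was 52 bases, below the 150 bp read length. In the annotation some members also share exons on the same strand. Hoxd3 and Hoxd4 shared 388 exonic bases, and Hoxc5 and Hoxc10 shared 166. Reads from these bases fit both genes of a pair. Among the paralog 9 genes, Hoxa9 and Hoxd9 were higher with CHIR at day 4 while Hoxb9 and Hoxc9 were not. The identity between these 4 homeoboxes ran from 81.7% (Hoxa9 with Hoxb9) to 84.4% (Hoxb9 with Hoxd9), and that of Hoxa9 with Hoxd9 was 82.8%. The pair that was higher with CHIR lay within the range of the other pairs.

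Promoter windows of RefSeq (GRCm38.p6) were matched for 22 of the 39 genes, in 24 windows. The 250 bases before the transcription start were searched on both strands for a direct repeat of retinoic acid receptor hexamers with a spacer of 5 bases (first AGGTCA or AGTTCA or GGTTCA or GGGTCA and then AGGTCA or AGTTCA), for a single AGGTCA or AGTTCA, for the caudal motifs TTTATGG and TTTATTG, for the TCF/LEF motifs CTTTGAT and CTTTGAA (of the factors that carry beta-catenin), and for TATAAA. The direct repeat was in 0 of the 24 Hox windows and in 0.06% of all 32851 windows. A single AGGTCA or AGTTCA was in 29.2% of Hox windows and 24.16% of all, a caudal motif in 8.3% (Hoxd4 and Hoxb8) and 6.51%, a TCF/LEF motif in 8.3% (Hoxd12 and Hoxd8) and 7.48%, and TATAAA in 16.7% and 12.37%. The Hox windows had a median of 12.5 CpG dinucleotides and 58.6% GC, against 6.0 and 52.4% over all windows. Printed here are Hoxa5, which had the highest level of the 39 genes, Hoxa9, whose order between the arms changed with time, and the windows of Hoxb8 and Hoxd8, which hold a caudal and a TCF/LEF motif. Capitals mark motif matches.
Hoxa5: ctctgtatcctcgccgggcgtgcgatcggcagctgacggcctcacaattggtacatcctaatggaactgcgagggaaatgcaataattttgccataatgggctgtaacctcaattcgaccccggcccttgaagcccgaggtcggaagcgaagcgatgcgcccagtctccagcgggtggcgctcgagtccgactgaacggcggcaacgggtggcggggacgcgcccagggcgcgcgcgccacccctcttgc
Hoxa9: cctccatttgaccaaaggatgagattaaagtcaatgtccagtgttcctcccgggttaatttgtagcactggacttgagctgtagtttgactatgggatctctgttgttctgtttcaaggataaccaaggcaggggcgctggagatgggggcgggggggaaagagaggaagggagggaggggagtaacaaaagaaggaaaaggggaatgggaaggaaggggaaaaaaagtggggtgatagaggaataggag
Hoxb8: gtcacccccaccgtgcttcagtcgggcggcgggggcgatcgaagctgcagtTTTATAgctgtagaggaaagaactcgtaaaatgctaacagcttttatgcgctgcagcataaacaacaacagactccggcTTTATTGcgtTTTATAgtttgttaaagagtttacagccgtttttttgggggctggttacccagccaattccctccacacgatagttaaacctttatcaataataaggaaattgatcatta
Hoxd8: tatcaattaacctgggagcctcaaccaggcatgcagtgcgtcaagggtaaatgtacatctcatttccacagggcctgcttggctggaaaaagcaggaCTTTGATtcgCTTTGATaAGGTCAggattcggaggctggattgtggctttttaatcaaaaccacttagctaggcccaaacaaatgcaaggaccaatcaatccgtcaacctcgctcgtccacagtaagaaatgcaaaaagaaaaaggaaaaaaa
The Hoxa5 window is chr6:52204588-52204837 (minus strand), within introns of the longer Hoxa3 model and of the antisense gene Hoxaas3, and held none of the motifs. The Hoxa9 window, chr6:52227371-52227620 (minus strand), lies in an intron of the longest Hoxa9 model and also held none. The Hoxb8 window, chr11:96281655-96281904 (plus strand), lies in no annotated gene and held TTTATTG at bases -120 to -114 from the start, between 2 matches to TATAAA on the other strand. The Hoxd8 window, chr2:74704365-74704614 (plus strand), lies in an intron of the antisense gene Hoxd3os1 and held CTTTGAT at -153 to -147 and again at -143 to -137, with AGGTCA at -135 to -130. A match describes letters in a short window, not a bound site.

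Gene-wise correlation between the libraries of a group lay between 0.98 and 0.989, and from 11573 to 13662 genes had FPKM of at least 1. Defining markers of the reference cells were present: the SMC libraries had the smooth muscle gene Myh11 at 14.8 to 16.1 FPKM, and the XEN libraries had the endoderm factor Sox17 (174 to 207 FPKM). In SMC the 6 smooth muscle genes listed summed to 17185 to 17808 FPKM, the highest of the 11 groups. The sum of the 8 fibroblast genes listed was also highest in SMC, at 11832 to 12160 FPKM. The mES libraries also held fibroblast collagen RNA (Col1a1, 8.43 to 12.8 FPKM), and they had been grown on fibroblasts. No fragment counts were part of the table, so the depth behind each value is unknown. These are bulk cultures, in which fewer cells of a type and less RNA per cell cannot be told apart.

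**Figure D1:**
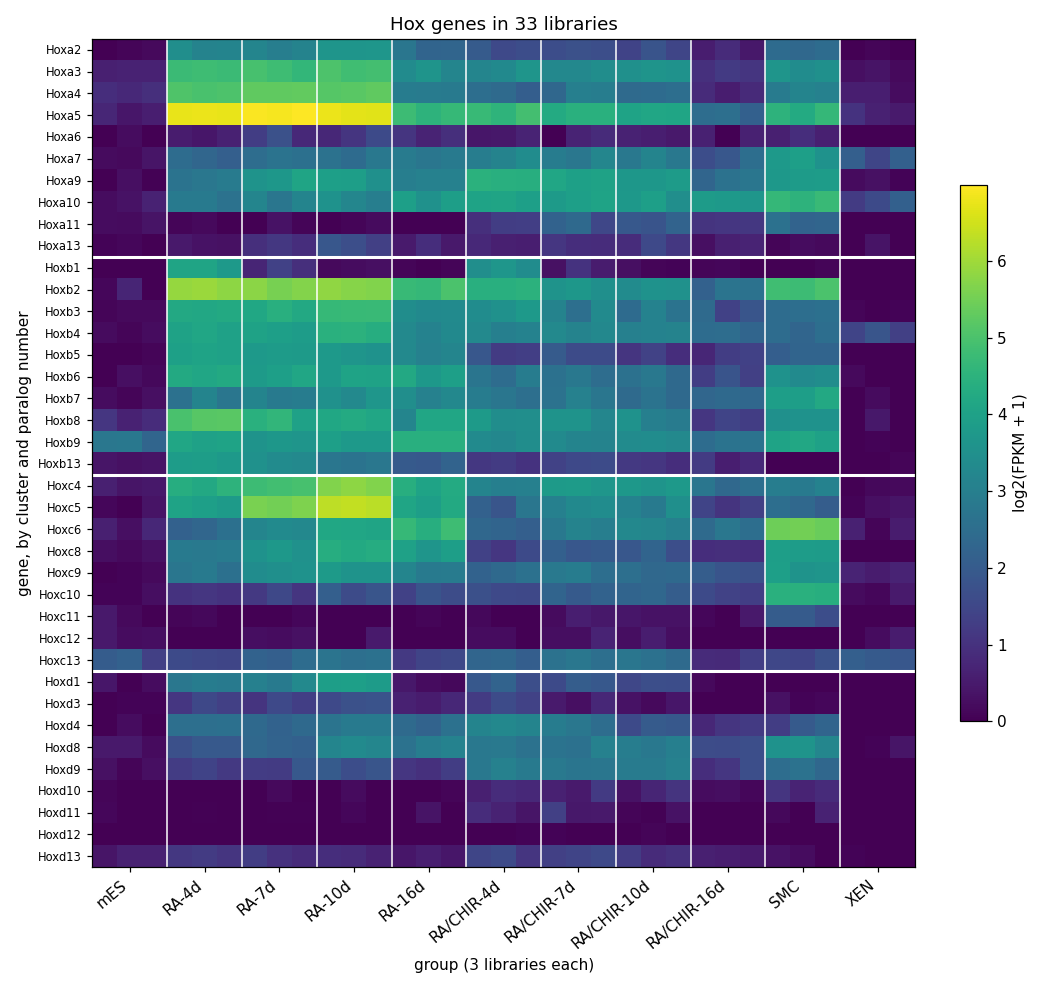
Heat map of log2(FPKM + 1) for Hox genes (rows, by cluster from A at the top to D at the bottom and by paralog number) in the 33 libraries (columns, 3 a group). The mES and XEN columns are dark in nearly all rows (summed Hox level 19.3 and 18.1 FPKM). The RA columns of days 4 to 10 are bright in anterior and central rows of HoxA and HoxB. By day 10 they are bright in Hoxc4 and Hoxc5 as well (49.8 and 78.2 FPKM in RA-10d replicate 1).

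The mES and XEN libraries had little Hox RNA. The 39 genes summed to 19.3 ± 1.53 FPKM (SD, n = 3) in mES, and 3 to 4 of them reached 1 FPKM in a library. Hoxb9, a posterior gene that patterns the thoracic ribs, had the highest level there (5.80, 5.99 and 3.88 FPKM). Hoxc13, known for its role in hair and nails, was also present (3.13, 3.54 and 1.52 FPKM), below Hoxb9 in every library. The mES libraries held fibroblast collagen RNA as well (above), and the part of fibroblasts in their Hox values was not tested. XEN cells had a sum of 18.1 ± 0.623 FPKM (SD, n = 3).

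In XEN against mES, 4 of the 36 tested genes were called changed, where 33.1% of all tested genes were. A pseudocount of 0.1 gave 18 (43.4% of all tested genes) and the adjusted p alone 12 (70.4%). Hoxb9 was at 0, 0.0477 and 0 FPKM in XEN and fell by 2.60 ± 0.10 on the log2 scale (SE, adjusted p = 1.5e-18 by limma), with every XEN library below every mES library. Hoxa7, a central gene that patterns thoracic vertebrae, was at 3.35, 1.75 and 3.40 FPKM in XEN against 0.143, 0.130 and 0.308 in mES (log2 fold change 1.65 ± 0.19). Hoxb4, known for its part in blood stem cells, was at 1.71, 2.62 and 1.5 FPKM against 0.157, 0.0721 and 0.181 (1.36 ± 0.10). Hoxa10 was higher by 1.23 ± 0.18, a call that ended without XEN replicate 3 (0.98). The 7 tested HoxD genes held none of the calls, and in XEN their cluster summed to 0.140 FPKM.

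SMC cells had a broad Hox profile. In SMC against mES, 26 of the 36 were higher and 0 lower, where 21.0% of all tested genes were called higher and 43.2% in either direction. Hoxc11 is among the 26 and was tested through its SMC values alone. The highest level was that of Hoxc6, a gene of thoracic identity (43.0, 44.0 and 41.4 FPKM), followed by Hoxb2 at 27.8, 26.6 and 31.2 FPKM and Hoxa10 at 24.2, 21.9 and 25.8 FPKM. These 3 sets of values did not overlap. Hoxc10, a gene of lumbar and hindlimb level, reached 20.7, 20.8 and 19.9 FPKM. Hoxb1 and Hoxd1 were at or near 0 there. Posterior genes made up 31.5% of the Hox sum in SMC.

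After 4 days in the RA arm, genes of all 4 clusters were higher than in mES. This step also took the cells from fibroblasts to gelatin. With no untreated culture at day 4, the part of retinoic acid alone was not tested. In RA-4d against mES, 28 of the 36 tested genes were higher and 0 lower, against 11.7% of all tested genes called higher. All 8 anterior genes and 14 of the 15 central genes were higher (Hoxa6, at 0.439, 0.342 and 0.568 FPKM, was the exception), while 6 of the 13 tested posterior genes were (Hoxa9, Hoxa10, Hoxb9, Hoxb13, Hoxc9 and Hoxd9). The Hox sum reached 547 ± 7.91 FPKM (SD, n = 3), of which HoxA made up 48.9% and HoxB 38.1%, HoxC 9.72% and HoxD 3.28%. The Hoxd9 call ended without mES replicate 2 or RA-4d replicate 2 (lowest 0.98).

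The genes with the highest levels differed in role. Hoxa5, needed for the lung and for cervical vertebrae, rose from 0.691, 0.353 and 0.510 FPKM in mES to 107, 109 and 107 FPKM (log2 fold change 6.17 ± 0.12). Hoxb2, a hindbrain gene, rose to 58.3, 60.6 and 55.2 FPKM (5.6 ± 0.14) from at most 0.651 in mES. In each case the groups were far apart.

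Hoxb1, which marks a single hindbrain segment, was listed at 0 in all mES libraries and at 15.9, 16.0 and 12.8 FPKM in RA-4d, so no fold is given. Within HoxC the highest level was that of Hoxc4 (19.7, 17.5 and 21.9 FPKM), and within HoxD that of Hoxd1 (5.82, 6.61 and 6.31 FPKM). One gene at the far 5′ end stood beside these: Hoxb13, known from the prostate and the tail tip, was at 13.6, 13.9 and 12.6 FPKM against 0.317, 0.243 and 0.303 in mES (3.48 ± 0.12). The other paralog 13 genes were not called: Hoxa13, Hoxc13 and Hoxd13 differed by 0.31, -0.35 and 0.58.

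With CHIR added, 27 of the 36 were higher than in mES at day 4 and 0 lower, against 9.06% of all tested genes called higher and 9.13% lower. Again all 8 anterior and 14 of the 15 central genes rose, and 5 of the 13 tested posterior genes did (Hoxa9, Hoxa10, Hoxc9, Hoxc10 and Hoxd9). The Hox sum was 279 ± 2.95 FPKM (SD, n = 3), with 50.1% from HoxA, 30.2% from HoxB, 9.64% from HoxC and 10.0% from HoxD. Hoxa5 was at 25.3, 22.4 and 28.7 FPKM. Hoxb2 (20.4, 20.1 and 21.4 FPKM) and Hoxa9 (21.1, 20.2 and 20.1 FPKM) followed and overlapped each other. The Hoxc8 call ended without RA/CHIR-4d replicate 3, where the difference was just under 1. The 2 comparisons with mES share the mES libraries.

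Set directly against RA at day 4, RA/CHIR had some lower anterior and central genes, and higher Hoxa9, Hoxa10, Hoxa11 and Hoxd9. Of the 36 tested genes 12 were lower (4.28% of all tested genes) and 4 higher (3.34%), or 16 in either direction (7.63%). By the adjusted p alone, without the fold rule, 29 were called (42.9%). The 4 higher genes were all posterior, and of the 12 lower genes 3 were anterior, 8 central and 1 posterior. In HoxA the direction changed along the cluster: Hoxa2, Hoxa3, Hoxa4 and Hoxa5 were lower, Hoxa6 and Hoxa7 were not called, and Hoxa9, Hoxa10 and Hoxa11 were higher. In HoxB 5 genes were lower and 0 higher, in HoxC 3 were lower and 0 higher, and in HoxD 1 was higher and 0 lower. The median difference of the 36 was -0.40, and that of all tested genes 0.01.

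Among the lower genes, Hoxa5 was at 25.3, 22.4 and 28.7 FPKM with CHIR against 107, 109 and 107 without (-2.05 ± 0.12, adjusted p = 1.4e-13). Hoxb5, its HoxB paralog, was at 2.70, 1.31 and 1.44 FPKM against 14.7, 15.7 and 15.0 (-2.55 ± 0.15). Hoxc5, the HoxC paralog, was at 3.47, 2.58 and 5.73 FPKM against 15.7, 14.4 and 13 (-1.69 ± 0.18). All 3 paralog 5 genes were thus lower with CHIR, with no overlap between the groups.

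The paralog 4 genes did not move together. Hoxa4, a gene of cervical identity, was at 4.80, 4.35 and 3.27 FPKM with CHIR against 32.8, 30.4 and 32.1 (-2.68 ± 0.13), and Hoxc4 was lower by 1.30 ± 0.10. Hoxb4 differed by -0.93 ± 0.10 and was not called, and Hoxd4 by 0.63 ± 0.17, also not called, with values of 7.94, 8.63 and 7.90 FPKM with CHIR against 4.88, 4.86 and 4.97. The CHIR values of Hoxd4 lay above all the values without it, those of the other 3 below. Hoxb1 differed by -0.48 and Hoxd1 by -0.91, neither of them called.

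Among the higher genes, Hoxa9, a posterior gene best known from blood progenitors and leukaemia, was at 21.1, 20.2 and 20.1 FPKM with CHIR against 5.29, 5.86 and 6.58 without (1.64 ± 0.12, adjusted p = 3.5e-11). Hoxd9, which acts in limb and lumbar patterning, was at 5.93, 7.38 and 6.21 FPKM against 1.37, 1.66 and 1.25 (1.63 ± 0.17). Hoxa10, needed in the uterus and lumbar spine, was at 15.6, 15.8 and 14.6 FPKM against 6.21, 6.20 and 5.27 (1.25 ± 0.18). The groups did not overlap for these genes.

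Hoxa11, which patterns the forearm and lower leg, was at 0.909, 1.43 and 1.47 FPKM with CHIR and at 0.0596, 0.140 and 0 without (1.08 ± 0.16), so this call is on low values, and its antisense partner moved with it (below). The other paralog 9 genes did not follow: Hoxb9 was at 9.12, 8.38 and 9.75 FPKM with CHIR against 16.6, 15.2 and 15.7 (-0.74 ± 0.10, not called) and Hoxc9 at 3.61, 4.22 and 5.14 FPKM against 5.74, 6.23 and 5.00 (-0.33 ± 0.13, not called). At the 5′ end, Hoxb13 was at 1.2, 1.3 and 1.02 FPKM with CHIR against 12.6 to 13.9 without (-2.72 ± 0.12), while Hoxa13, Hoxc13 and Hoxd13 differed by 0.30, 0.74 and 0.24 and were not called.

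As a description of position, the rank correlation across genes of paralog number with the day 4 difference between arms was 0.71 over the 11 HoxA genes, 0.81 over 8 HoxC genes and 0.54 over 7 HoxD genes, but -0.42 over the 10 HoxB genes, whose lowest member was Hoxb13. Over all 36 it was 0.44. The genes share the same 6 libraries and neighbouring sequence, and are not independent points.

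**Figure D2:**
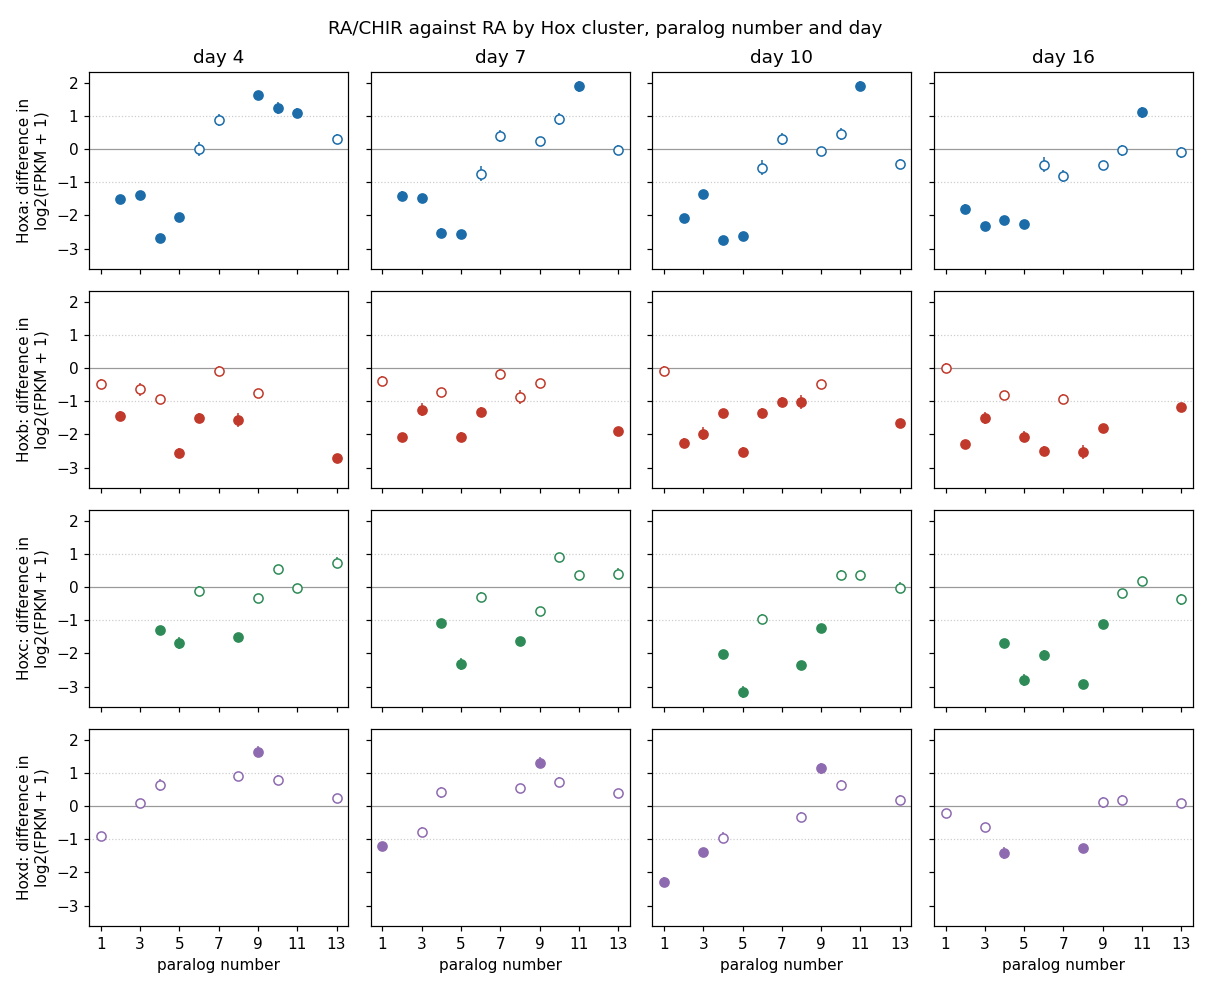
Difference in log2(FPKM + 1) between RA/CHIR and RA (vertical axis, with standard error) against paralog number (horizontal axis), with a row of panels for each cluster and a column for each day. Filled points are genes called changed and dotted lines mark a difference of 1. At day 4 HoxA runs from -2.68 at Hoxa4 to 1.64 at Hoxa9, and the filled points of HoxB and HoxC lie below 0 at all 4 days.

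Calls between the arms numbered 15 at day 7, 20 at day 10 and 19 at day 16, after 16 at day 4. With CHIR 13 of the 36 were lower at day 7 (6.61% of all tested genes) and 2 higher (4.06%), 18 lower at day 10 (9.07%) and 2 higher (6.35%), and 18 lower at day 16 (12.9%) and 1 higher (8.41%, and 21.3% in either direction). By the adjusted p alone 31 were called at day 7 (47.3% of all tested genes) and 31 at day 10 (55.2%). The higher genes were Hoxa11 and Hoxd9 at days 7 and 10 and Hoxa11 at day 16. Of the 15 central genes 8 were lower at day 4, 7 at day 7, 10 at day 10 and 11 at day 16. Hoxa2, Hoxa3, Hoxa4, Hoxa5, Hoxb2, Hoxb5, Hoxb6, Hoxb13, Hoxc4, Hoxc5 and Hoxc8 were lower at all 4 days.

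In HoxC the distance grew at Hoxc5, from 13 to 15.7 FPKM without CHIR and 2.58 to 5.73 with it at day 4, to 78.2, 79.9 and 76.5 FPKM without and 7.56, 6.21 and 10.1 with it at day 10 (-3.17 ± 0.18, adjusted p = 2.2e-14). Hoxc8, a gene of thoracic and brachial level, was at 19.3, 17.9 and 19.1 FPKM without CHIR and 2.76, 3.76 and 2.23 with it at day 10 (-2.36 ± 0.12). Hoxc6 was not called at days 4, 7 and 10 (-0.12, -0.29 and -0.95) and was lower at day 16 (-2.05 ± 0.14), when it was at 24.9, 19.7 and 27.4 FPKM without CHIR and 4.39, 5.83 and 4.79 with it. Hoxc10 differed by 0.53, 0.90, 0.37 and -0.19 over the 4 days and was never called.

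In HoxD, Hoxd1 at the anterior end was lower with CHIR at days 7 and 10 while Hoxd9 was higher. Hoxd1 differed by -0.91 at day 4 and was lower by 1.21 ± 0.14 at day 7 and 2.29 ± 0.14 at day 10, when it was at 1.83, 2.20 and 2.15 FPKM with CHIR against 14.1, 14.5 and 13.2. Hoxd9 stayed higher with CHIR at day 10, at 6.52, 6.50 and 7.45 FPKM against 3.03, 2.14 and 2.56 (1.14 ± 0.17), and differed by 0.11 ± 0.17 at day 16. Hoxd4 went from 0.63 at day 4 to -1.42 ± 0.17 at day 16, where it was called. The rank correlation of paralog number with the difference over the 7 HoxD genes was 0.86 at day 10.

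In HoxB the lower genes came to span most of the cluster. Hoxb2 was at 9.40, 10.9 and 10.5 FPKM with CHIR at day 10 against 56.1, 51.7 and 49.4 (-2.24 ± 0.14). Hoxb8, active in spinal cord and in microglia precursors, was at 1.17, 1.71 and 1.42 FPKM with CHIR at day 16 against 8.03, 16.5 and 16.6 (-2.53 ± 0.21), where RA-16d replicate 1 was the low one. Hoxb9 joined them at day 16 (4.54, 5.36 and 5.38 FPKM against 20.1, 20.5 and 20.4, -1.81 ± 0.10). Hoxb1 was not called at any day, being near 0 in both arms from day 10 on.

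Hoxa11 kept the opposite direction. It was at 3.61, 4.20 and 1.82 FPKM with CHIR at day 7 and 2.79, 2.55 and 3.70 at day 10, against at most 0.260 without CHIR (1.89 ± 0.16 and 1.90 ± 0.16). At day 16 it was at 1.08, 1.17 and 1.21 FPKM with CHIR and listed at 0 in every RA library. Some calls depended on a setting or on 1 library. Under scaling by trimmed means Hoxb7 (-1.02) and Hoxb8 (-1.03) lost their day 10 calls (-0.97 and -0.98). Hoxb7 also lost it under quantile normalization and without RA-10d replicate 1 or 3 or RA/CHIR-10d replicate 1 or 3 (nearest to 0, -0.93), and Hoxb8 without RA-10d replicate 2 or RA/CHIR-10d replicate 2 or 3 (-0.91). At day 16 quantile normalization ended the calls of Hoxc9 (-0.97) and Hoxb13 (-0.95).

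**Figure D3:**
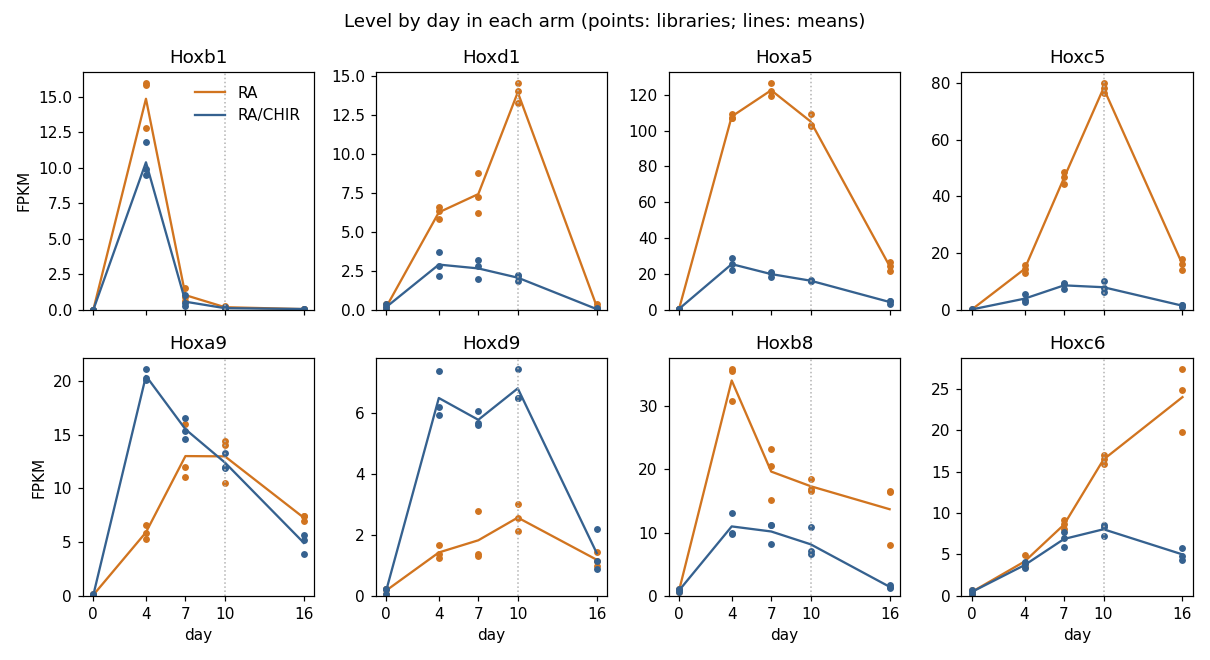
FPKM (linear axis from 0) of 8 Hox genes against day in the RA arm (orange) and the RA/CHIR arm (blue), with mES as day 0; points are libraries, lines join means, and the dotted line marks the end of the inducers at day 10. Hoxb1 is high at day 4 alone in both arms, Hoxc5 climbs to about 78.2 FPKM in the RA arm by day 10, and the arms cross for Hoxa9, from 20.5 against 5.91 FPKM at day 4.

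Within the RA arm, days 4 to 10 brought a rise of HoxC genes and a loss of Hoxb1. In RA-10d against RA-4d, 9 of the 36 rose (6.26% of all tested genes) and 3 fell (5.12%). Without the fold rule 25 were called (50.5%). The 9 were Hoxc4, Hoxc5, Hoxc6, Hoxc8 and Hoxc13 of HoxC, Hoxa9 and Hoxa13, and Hoxd1 and Hoxd8. Hoxc5 went from 15.7, 14.4 and 13 FPKM at day 4 through 47.0, 44.2 and 48.5 at day 7 to 78.2, 79.9 and 76.5 at day 10 (2.37 ± 0.18). The HoxC share of the Hox sum was 9.72% at day 4, 19.7% at day 7 and 29.3% at day 10.

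Hoxb1 fell from 12.8 to 16.0 FPKM at day 4 to 0.640, 1.53 and 0.925 at day 7 and 0.131, 0.182 and 0.232 at day 10 (-3.74 ± 0.14 from day 4 to 10). Hoxb13 fell by 1.12 ± 0.12. Hoxd1, a paralog of Hoxb1, went the other way, to 13.2 to 14.5 FPKM from 5.82 to 6.61 (1.04 ± 0.14). The Hoxd1 call ended under scaling by trimmed means (0.98), and that of Hoxa9 (1.01 ± 0.12) there and without RA-4d replicate 1 or RA-10d replicate 1 or 2 (lowest 0.93).

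In the RA/CHIR arm 0 of the 36 rose over the same days (3.91% of all tested genes) and 3 fell (4.10%), where 8.01% changed in either direction. Hoxb1 fell from 9.89, 11.8 and 9.51 FPKM to 0.216, 0.0681 and 0.0558 (-3.35 ± 0.14), Hoxd4 from 7.94, 8.63 and 7.90 to 1.99, 3.05 and 2.81 (-1.35 ± 0.17), and Hoxd3, a gene of the upper neck, by 1.09 ± 0.13, a call that ended without RA/CHIR-4d replicate 2 (-0.99). By the adjusted p alone 18 of the 36 were called, where 45.2% of all tested genes were. A pseudocount of 0.1 gave 8 (14.4%), and 5 were called without RA/CHIR-10d replicate 2.

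The change from day 4 to day 10 was compared between the arms by the interaction term, in which 8 of the 36 were called where 14.1% of all tested genes were (6.29% higher and 7.83% lower). The adjusted p alone called 22 (40.6%). For 7 of them the change was lower with CHIR. Hoxa9 had 5.91 FPKM in RA and 20.5 in RA/CHIR at day 4 and 13 and 12.4 at day 10 (means, difference of changes -1.69 ± 0.18). The 4 HoxD genes Hoxd1, Hoxd3, Hoxd4 and Hoxd8 were among the 7, with -1.38, -1.47, -1.59 and -1.21. Hoxb13 was the gene with a change that was higher with CHIR (1.07 ± 0.17): it fell in RA and was at 0.890 to 1.3 FPKM in RA/CHIR at both days.

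After the inducers were taken away Hox genes fell in both arms and none rose. Serum also went from 15% to 10% at this step, and 6 more days passed. No culture kept on the inducers was sampled at day 16. Withdrawal, serum and time therefore cannot be told apart, here or in the interaction below. In RA-16d against RA-10d 13 of the 36 fell (1.80% of all tested genes) and 0 rose (7.37%), where 9.17% changed in either direction. Without the fold rule 25 were called (41.6%). Of the anterior genes 6 of 8 fell, with 5 of the 15 central and 2 of the 13 tested posterior genes. Hoxd1 fell from 14.1, 14.5 and 13.2 FPKM to 0.358, 0.182 and 0.0996 (-3.63 ± 0.14).

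Hoxa5 fell from 110, 103 and 102 FPKM to 26.8, 21.8 and 24.5 (-2.07 ± 0.12), and Hoxc5 from 76.5 to 79.9 to 16.1, 14 and 17.8 (-2.23 ± 0.18). Hoxa4 fell by 2.30 ± 0.13. In contrast Hoxb9 (20.1, 20.5 and 20.4 FPKM, 0.59 ± 0.10), Hoxc6 (0.51 ± 0.14), Hoxa10 (0.54 ± 0.18) and Hoxb6 (0.01 ± 0.15) were not called, and the first 3 of these had their highest RA-arm mean at day 16. The posterior share of the Hox sum was 10.4% at day 10 and 19.9% at day 16, while the posterior sum went from 65.7 to 56.6 FPKM (means). The calls of Hoxa13 (-1.0) and Hoxd3 (-1.05) ended without single libraries of RA-10d or RA-16d (Hoxa13 without RA-10d replicate 1 or 2 or RA-16d replicate 1 or 3, Hoxd3 without RA-10d replicate 3 or RA-16d replicate 2), and that of Hoxa13 under scaling by trimmed means.

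In the RA/CHIR arm 14 of the 36 fell after withdrawal (6.28% of all tested genes) and 0 rose (8.47%): 3 anterior, 8 central and 3 posterior genes. A pseudocount of 0.1 gave 24 calls (23.1% of all tested genes) and the adjusted p alone 28 (55%). Hoxa3 fell from 10.3, 11.4 and 10.8 FPKM to 0.942, 1.28 and 1.13 (-2.49 ± 0.11). Hoxd9 fell from 6.52, 6.50 and 7.45 FPKM to 0.892, 1.14 and 2.19 (-1.74 ± 0.17), and Hoxb8 by 1.89 ± 0.21.

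Hoxa10 did not follow: it was at 12.2, 14.5 and 10.0 FPKM at day 10 and 13.2, 12.6 and 11.7 at day 16 (0.04 ± 0.18), and was then the highest Hox gene of the arm. The Hox sum went from 221 ± 5.28 to 82.0 ± 1.69 FPKM (SD, n = 3), and the posterior share from 27.9% to 39.7%. The posterior sum itself went down, from 61.7 to 32.5 FPKM (means). The Hoxc8 call (-1.02) ended without RA/CHIR-10d replicate 2 (-0.87).

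The interaction of arm and withdrawal called 7 of the 36, where 14.8% of all tested genes were called (6.02% higher and 8.81% lower). The adjusted p alone called 17 (43.3%). Hoxb8 (-1.5 ± 0.29), Hoxb9 (-1.34 ± 0.14), Hoxb6 (-1.14 ± 0.21), Hoxc6 (-1.10 ± 0.20), Hoxa7 (-1.10 ± 0.27) and Hoxd9 (-1.03 ± 0.23) lost more, or gained less, with CHIR, and Hoxd1 lost more without it (2.07 ± 0.19). The Hoxa7 and Hoxd9 calls ended without single libraries (Hoxa7 without RA/CHIR-10d replicate 2 or RA/CHIR-16d replicate 1, Hoxd9 without RA-10d replicate 2, RA-16d replicate 3, RA/CHIR-10d replicate 3 or RA/CHIR-16d replicate 1 or 2), with the lowest sizes -0.92 and -0.87.

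**Figure D4:**
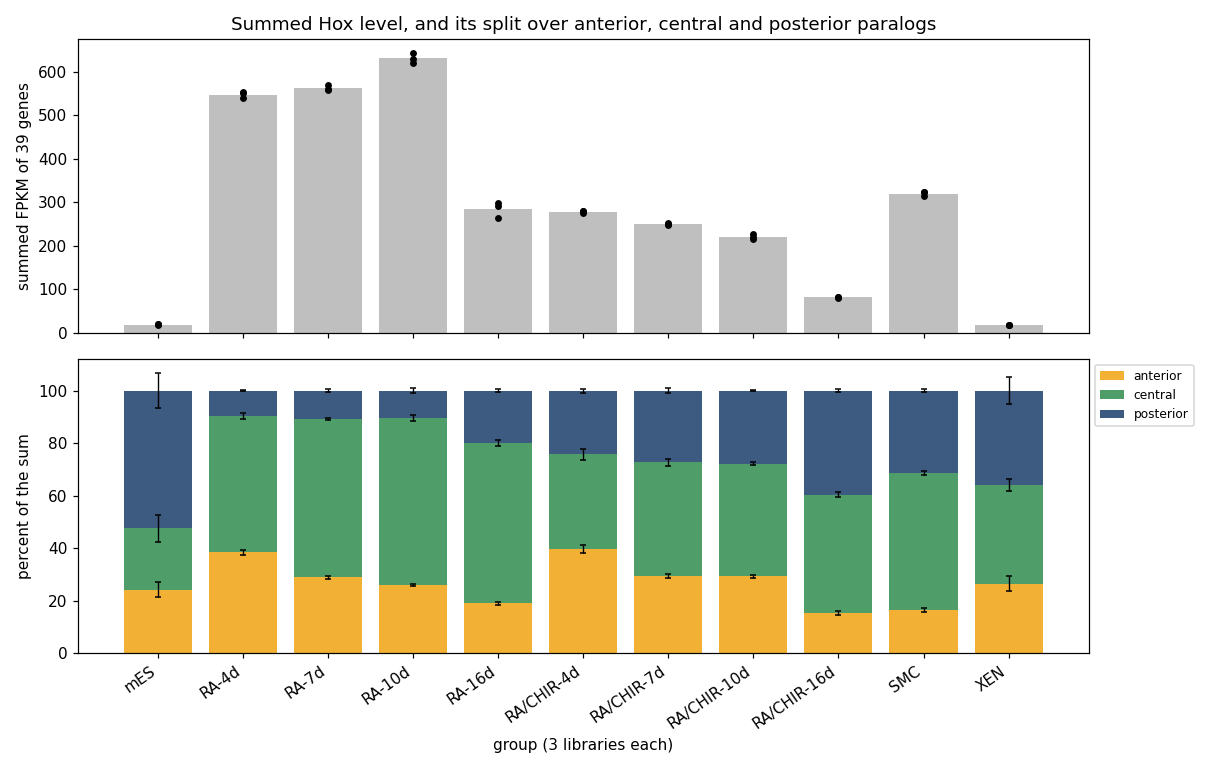
Top: summed FPKM of the 39 Hox genes (bars are means of 3 libraries, points the libraries). Bottom: percent of that sum from anterior, central and posterior genes (means, with the SD over 3 libraries at each boundary). The sum is highest in RA-10d (630 FPKM), and the posterior share at day 4 is 9.61% in RA and 24.3% in RA/CHIR.

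The split of the Hox sum over the classes set the arms apart at each day, as a description and without a test. Posterior genes made up 9.61%, 10.9%, 10.4% and 19.9% of the sum in the RA arm at days 4, 7, 10 and 16, and 24.3%, 27.4%, 27.9% and 39.7% in the RA/CHIR arm. In FPKM at day 4 the posterior sums were 52.6 ± 1.84 in RA and 67.6 ± 1.42 in RA/CHIR (SD, n = 3), and the central sums 285 ± 3.41 and 101 ± 6.90. The anterior sums were 210 ± 8.09 in RA and 110 ± 3.38 in RA/CHIR (SD, n = 3). The higher posterior level and the lower central and anterior levels thus entered the difference in share at day 4. The posterior sums were 61.1 ± 3.74 in RA and 68.4 ± 1.81 in RA/CHIR at day 7. They were 65.7 ± 7.26 and 61.7 ± 1.86 at day 10, and 56.6 ± 1.99 and 32.5 ± 0.973 at day 16. At days 10 and 16 the higher posterior share with CHIR thus came without a higher posterior sum. HoxD made up 3.28% of the sum in RA-4d against 10.0% in RA/CHIR-4d.

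At the end of the protocol the RA arm was compared with SMC. In RA-16d against SMC 3 of the 36 were higher (15.0% of all tested genes) and 4 lower (10.5%), and the median difference of the 36 was -0.01. The 4 lower genes were posterior. Hoxc11 is given as a description, since it was tested through its SMC values alone and so had to differ: it was at 0, 0.0697 and 0 FPKM against 3.11, 3.00 and 2.16 (-1.87 ± 0.12). The other 3 were Hoxc10 at 1.54, 2.51 and 2.10 FPKM against 20.7, 20.8 and 19.9 (-2.83 ± 0.14), Hoxd9 at 1.16, 0.970 and 1.43 against 4.69, 5.21 and 4.05 (-1.37 ± 0.17), and Hoxa11, listed at 0 in RA-16d and at 5.11, 3.68 and 3.82 in SMC. The higher genes were Hoxc4 (20.1, 15.6 and 18.2 FPKM against 6.78, 6.24 and 7.64, 1.26 ± 0.10), Hoxc5 (1.76 ± 0.18) and Hoxb13, at 2.98, 2.83 and 3.66 FPKM and listed at 0 in SMC. None of the 8 anterior genes was called, and Hoxa5 was at 26.8, 21.8 and 24.5 FPKM against 21.9, 18.5 and 24.2 (0.17 ± 0.12). A pseudocount of 0.1 gave 14 calls (34.6% of all tested genes) and the adjusted p alone 25 (66.3%).

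The RA/CHIR arm kept Hox RNA that XEN cells did not have. In RA/CHIR-16d against XEN 19 of the 36 were higher (14.5% of all tested genes) and 0 lower (8.64%). A pseudocount of 0.1 gave 29 calls (33.6% of all tested genes). Hoxb9 was at 4.54, 5.36 and 5.38 FPKM against 0, 0.0477 and 0 (2.58 ± 0.10), Hoxc4 at 5.67, 4.16 and 4.86 against 0, 0.107 and 0.132 (2.44 ± 0.10), and Hoxa10 at 13.2, 12.6 and 11.7 against 1.31, 1.98 and 3.40 (2.11 ± 0.18). Hoxb2, Hoxb5, Hoxd4, Hoxd9 and Hoxa11 were listed at 0 in all XEN libraries. Hoxc13 had the reverse order (0.825, 0.794 and 1.44 FPKM against 3.35, 2.93 and 2.71) and was not called. Quantile normalization ended the calls of Hoxb8, Hoxc5, Hoxc9, Hoxc10 and Hoxd4 (lowest 0.61, for Hoxc5), and those of Hoxc5 and Hoxd4 also ended without single libraries (RA/CHIR-16d replicate 1 or 3 or XEN replicate 1 for Hoxc5, RA/CHIR-16d replicate 2 or 3 for Hoxd4).

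**Figure D5:**
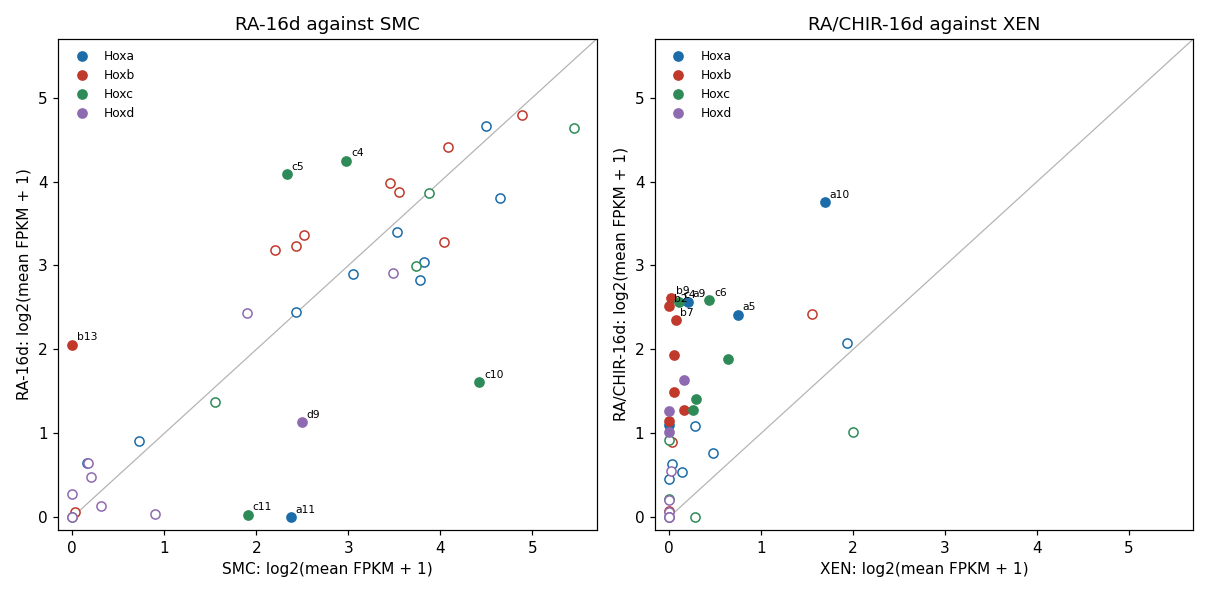
Mean levels as log2(mean FPKM + 1) of Hox genes at day 16 (vertical) against the reference cells (horizontal): RA-16d against SMC on the left, RA/CHIR-16d against XEN on the right. Filled points are called genes, labelled where the level is not near 0, and the line marks equality. On the left the labelled Hoxc10 lies far below the line (20.7 FPKM in SMC replicate 1), and on the right most filled points lie against the vertical axis, near 0 in XEN.

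Of the caudal genes, which encode known regulators of Hox clusters, Cdx1 was at 86.8, 86.5 and 91.7 FPKM in RA/CHIR-4d against 0.487, 0.455 and 0.252 in RA-4d (6.00 ± 0.13), and was down to 1.48, 1.79 and 1.15 FPKM in RA/CHIR-10d. Cdx2 was at 4.66, 6.10 and 6.67 FPKM in RA/CHIR-4d against 1.73, 0.982 and 0.963 (1.62 ± 0.15), and still at 7.49, 6.46 and 7.53 in RA/CHIR-10d against at most 0.277 in RA-10d (2.84 ± 0.15). Cdx4 did not pass the filter. Set beside the Hox values, Hoxa9 and Hoxd9 were both higher with CHIR at day 4, and at day 10 Hoxa9 differed by -0.05 ± 0.12 while Hoxd9 was still higher (1.14 ± 0.17). Their paralogs Hoxb9 and Hoxc9 were not called at day 4. Of the 13 tested posterior genes 4 were higher and 1 (Hoxb13) lower with CHIR at that day. Of the 15 central genes 0 were higher and 8 lower. A link of the Cdx levels to these differences was not tested.

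Hox proteins bind DNA together with the TALE homeodomain cofactors, the Meis family among them. Of the 9 listed, 5 rose in RA-4d against mES (11.7% of all tested genes). With CHIR 0 were higher and 4 lower at day 4 (3.34% and 4.28% of all tested genes). The counts were 0 and 6 at day 10 (6.35% and 9.07%), and 0 and 5 at day 16 (8.41% and 12.9%). Meis2 was at 14.3, 13.9 and 12.9 FPKM with CHIR against 58.3, 61 and 60 at day 4 (-2.05 ± 0.18), and at 3.95, 3.89 and 3.45 against 66.7, 72.8 and 72.7 at day 16 (-3.91 ± 0.18). Meis1 was lower by 1.62 ± 0.09 at day 4. The groups did not overlap for Meis2 at either day.

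Of the 18 retinoid genes listed, 17 were tested. In RA-4d against mES 11 rose and 1 fell, where 11.7% of all tested genes were called in each direction. With CHIR at day 4 against RA 2 were higher (Stra6, 1.25 ± 0.11, and Stra8, 1.05 ± 0.19) and 4 lower. Of all tested genes 3.34% were higher and 4.28% lower there. Rarb, the receptor gene that retinoic acid itself induces, was at 14.7, 16.2 and 16.7 FPKM with CHIR against 67.5, 64.4 and 66.6 (-2.0 ± 0.19). The RA-degrading enzyme gene Cyp26b1 was lower by 3.10 ± 0.10, Aldh1a2, which makes retinoic acid, by 2.37 ± 0.12, and Rara by 1.08 ± 0.08. Cyp26a1, the other main degrading enzyme, differed by -0.76 ± 0.12 at day 4 and was higher with CHIR by 2.95 ± 0.12 at day 10. Calls of the list thus went both ways.

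Polycomb and trithorax genes, which silence and maintain Hox transcription, were mostly not called between the arms, as was so for most tested genes. Of 23 tested, 0 were called between the arms at day 4, where 7.63% of all tested genes were. At day 10 Ezh1 was higher (1.67 ± 0.11) and Cbx2 lower (-1.52 ± 0.13) with CHIR, where 15.4% of all tested genes were called. Against mES, 4 rose and 6 fell in RA-4d, where 11.7% of all tested genes were called in each direction. Among the 6 were Phc1 (-3.53 ± 0.11), Eed (-1.68 ± 0.10) and Ezh2 (-1.24 ± 0.09). Ezh2 was at 77.7, 81.0 and 74.3 FPKM in mES and 31.1, 34.4 and 31.8 in RA-4d. Of 7 hindbrain regulators tested, Fgf8 was higher with CHIR at day 4 (1.82 ± 0.23), and at day 10 3 of the 7 were, Gbx2 (1.85 ± 0.17) among them.

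Noncoding transcripts of the clusters in part followed their neighbours. Of the 15 listed, 9 were tested, and the hairpin genes Mir10a, Mir10b, Mir196b and Mir615 were listed at 0 in all libraries. Hoxa11os, antisense to Hoxa11, was at 2.31, 3.57 and 2.72 FPKM with CHIR at day 4 against 0.377, 0.976 and 0.242 (1.35 ± 0.19) and remained higher at days 10 and 16 (2.81 ± 0.19 and 2.01 ± 0.19). Without strand, reads from the shared bases (35% of the exonic length of Hoxa11) cannot be told apart between Hoxa11 and Hoxa11os. Hoxb5os was at 70.6, 58.3 and 72.0 FPKM with CHIR at day 4 and 60.9, 60.2 and 60.3 without (0.14 ± 0.16), while its sense partner Hoxb5 was lower by 2.55. By day 16 Hoxb5os was lower as well (-2.70 ± 0.16). The noncoding RNA Hotairm1 of the HoxA cluster was at 60.5, 76.2 and 128 FPKM in RA-4d against 9.65, 43.7 and 13 in RA/CHIR-4d, a difference that was not called (-2.17 ± 1.03, adjusted p = 0.093). Its values were widely spread within both groups.

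The cell populations also changed with arm and day. Pluripotency genes (5 listed, Pou5f1 among them) summed to 122 to 127 FPKM in RA-4d against 431 to 435 in RA/CHIR-4d, and 4 of the 5 were higher with CHIR at day 4. Mesothelium genes (Wt1, Upk3b and Msln) summed to 183 to 196 FPKM in RA-10d and 1.87 to 2.45 in RA/CHIR-10d, and all 3 were lower with CHIR. Smooth muscle genes (6 listed) summed to 7378 to 8323 FPKM in RA-16d and 446 to 462 in RA/CHIR-16d, all 6 lower with CHIR, and fibroblast genes (8 listed) to 2934 to 3621 and 431 to 469, with 7 of 8 lower. Extraembryonic endoderm genes (7 listed) summed to 557 to 573 FPKM in RA-4d against 391 to 412 in RA/CHIR-4d, and to 332 to 369 and 1096 to 1192 at day 16, where all 7 were higher with CHIR. Of all tested genes 3.34% were higher with CHIR at day 4 and 9.07% lower at day 10. At day 16 12.9% were lower and 8.41% higher.

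Other lineages were low. The neural list (8 genes) summed to 24.3 to 28.5 FPKM in RA-4d against 15.8 to 19.4 in RA/CHIR-4d, and of its members Olig2 was listed at 0 in both arms at day 10. The neural crest list (Sox10, Foxd3 and Tfap2a) stayed at or under 1.37 FPKM in both arms at all days. The posterior mesoderm list (4 genes, 3 tested) summed to 4.04 to 4.71 FPKM in RA-4d against 1.61 to 2.26 in RA/CHIR-4d. With CHIR 1 member was higher and 1 lower (3.34% and 4.28% of all tested genes). The higher one, T (Brachyury), was at 1.23, 1.10 and 1.77 FPKM in RA/CHIR-4d and at most 0.0515 in RA-4d, while Meox1 was lower by 2.21 ± 0.11 and Msgn1 was listed at 0 in both arms. The part of these populations in the Hox differences was not tested.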

How the data were processed

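Poly(A) RNA of 33 mouse libraries (11 groups of 3) was sequenced in pairs of 150 bp reads; the labels' protocols give roughly 25 M reads for each. Per the submitters' processing notes, Trimmomatic 0.33, HISAT2 2.0.4, Cufflinks and Cuffdiff were used on GRCm38, with no parameters given. The deposited values are FPKM computed by the authors for 52631 genes. They are estimates without counts, so depth and counting intervals are unknown, and a value of 0 is read as listed at 0. Strand and annotation release are not given in the sources used here.

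Values were analysed as log2(FPKM + 1), and fold changes are differences on that scale, which understates low genes. One limma 3.58.1 model (R 4.3.3, trended prior variance, 22 residual and 3.05 prior degrees of freedom) was fitted to the 16508 genes that reached 1 FPKM in 3 or more libraries, with two-sided p-values adjusted by Benjamini-Hochberg over all of them. A gene was called at an adjusted p under 0.05 and a difference of at least 1, and "rose", "fell", "higher" and "lower" in a comparison refer to such calls. The script was tested on simulated data. Errors after ± are standard errors unless given as SD. Groups follow the labels, and the comparisons were the arms at each day, each arm over time, both interactions, and the reference cells. Alternatives were scaling by trimmed means, quantile normalization, pseudocount 0.1, other filters, no trend, a replicate block, no fold rule, fits of the compared groups alone and leaving out each library. Homeoboxes came from GENCODE M21 transcripts and promoters from RefSeq (Python 3.11.15).

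Named genes were, in each comparison and cluster, up to 2 called members with the largest rise and 2 with the largest fall, the members of paralogs 1, 4 and 13, and those with the highest level or a changed order of arms. From the other lists up to 3 of the largest called changes and defining members were named. The members and lists were chosen with earlier results of these data known. Further genes, such as the paralog 5 and 9 sets, were named after their values were seen. Results for some items are not reported here.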

Additional observations from a re-analysis of the deposited data

Results flagged for a closer look

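The change over time differed between the arms for 15 gene and interval pairs, by the interaction term of the model at an adjusted p under 0.05 and a size of at least 1. By the same rule 14.1% of all tested genes were called from day 4 to day 10, and 14.8% from day 10 to day 16. Values are the change in RA/CHIR minus the change in RA on the log2 scale. From day 4 to day 10 these were Hoxa9 (-1.69), Hoxb3 (-1.34), Hoxb13 (1.07), Hoxc5 (-1.48), Hoxd1 (-1.38), Hoxd3 (-1.47), Hoxd4 (-1.59) and Hoxd8 (-1.21). From day 10 to day 16 they were Hoxa7 (-1.10), Hoxb6 (-1.14), Hoxb8 (-1.5), Hoxb9 (-1.34), Hoxc6 (-1.10), Hoxd1 (2.07) and Hoxd9 (-1.03). Hoxd1 is in both, with opposite signs: it was at 13.2 to 14.5 FPKM in RA-10d and near 0 in both arms at day 16.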

How the results depend on the processing

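Of 238 calls of single Hox genes, 218 held under every alternative run for them, 20 ended under at least 1, and 0 reversed. With a pseudocount of 0.1 the called members numbered 8 for RA/CHIR-10d against RA/CHIR-4d, 24 for RA/CHIR-16d against RA/CHIR-10d, 18 for XEN against mES, 14 for RA-16d against SMC and 29 for RA/CHIR-16d against XEN. By the adjusted p alone they numbered 29, 31 and 31 between the arms at days 4, 7 and 10, 25 for RA-10d against RA-4d, 18 for RA/CHIR-10d against RA/CHIR-4d, 25 and 28 after withdrawal in RA and RA/CHIR, 22 and 17 for the 2 interactions, 12 for XEN against mES and 25 for RA-16d against SMC. The share of all tested genes called rose as well. Over the 16 comparisons it was 13.3% to 52.2% with a pseudocount of 0.1 (14.4%, 23.1%, 43.4%, 34.6% and 33.6% in the 5 named) and 40.6% to 76.2% by the adjusted p alone (42.9%, 47.3% and 55.2% between the arms at days 4, 7 and 10, 50.5% and 45.2% from day 4 to 10, 41.6% and 55% after withdrawal, 40.6% and 43.3% for the interactions, 70.4% for XEN against mES and 66.3% for RA-16d against SMC). Leaving out each library in turn gave 16 to 17, 15 to 16, 18 to 20 and 19 to 20 between the arms at days 4, 7, 10 and 16, 27 to 28 and 26 to 28 for RA-4d and RA/CHIR-4d against mES, 11 to 12 and 2 to 5 from day 4 to 10 in RA and RA/CHIR (5 without RA/CHIR-10d replicate 2), 12 to 13 and 13 to 17 after withdrawal, 8 to 9 and 5 to 8 for the interactions, 26 for SMC and 3 to 4 for XEN against mES, 7 to 9 for RA-16d against SMC and 18 to 21 for RA/CHIR-16d against XEN.

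Same-numbered libraries did not deviate together in every pair in any comparison, so the replicate numbers were not taken as pairing. With the replicate block the counts were as without it (16, 15, 20 and 19 between the arms, 28 and 27 for day 4 against mES, 12 and 3 from day 4 to 10, 13 and 14 after withdrawal, 8 and 7 for the interactions, 26 and 4 for SMC and XEN against mES, 7 and 19 for the reference comparisons).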

Other observations

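Some homeobox genes outside the clusters, and a gene beside HoxC, also differed between the arms. Gsx2, a ParaHox gene, was at 7.68, 7.67 and 6.48 FPKM in RA/CHIR-10d and listed at 0 in all RA-10d libraries. Mnx1, a homeobox gene of motor neurons and pancreas, was at 5.19, 7.83 and 8.29 FPKM in RA/CHIR-4d against 0.623, 1.10 and 1.83 in RA-4d (1.91 ± 0.22 by limma). Meox1 was lower with CHIR at day 4 by 2.21 ± 0.11. Evx1, the even-skipped gene next to Hoxa13, was at 1.85, 1.57 and 1.32 FPKM in RA/CHIR-4d against 0.212, 0.324 and 0.306 (1.01 ± 0.09), a low level.

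Calcoco1, from the list of genes flanking the clusters, was at 12.3, 12.7 and 12.3 FPKM in RA/CHIR-4d against 29.7, 31.7 and 33.2 in RA-4d (-1.27 ± 0.08), and was lower at days 10 and 16 as well (-1.73 ± 0.08 and -1.55 ± 0.08). Of the 11 flanking genes tested, 1 was higher and 1 lower with CHIR at day 4, 1 and 1 at day 10, and 0 and 3 at day 16. Of all tested genes 7.63%, 15.4% and 21.3% were called in either direction at these days.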
